A study of Mus musculus with 6 samples.

Results

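The clustered protocadherins, the genes whose symbol starts with Pcdha, Pcdhb or Pcdhg followed by a number or letter, were examined in RNA-Seq of sorted mouse retinal cells overexpressing a catalytically dead Ezh2. Matching Ensembl gene IDs to symbols found 58 of them among the 32371 genes of the count table, 14 in the alpha, 22 in the beta and 22 in the gamma cluster. C57BL/6J mice received AAV2-GFP (control) or AAV2-Ezh2-Y726D in the vitreous body, and the nerve was crushed 2 weeks later in both groups. Cells positive for CD90.2, the product of Thy1, were sorted from dissociated retinas 3 days after the optic nerve crush (ONC), with 3 libraries per group. Ezh2 is the methyltransferase subunit of Polycomb repressive complex 2 (PRC2), and Ezh2-Y726D carries a tyrosine to aspartic acid substitution reported to abolish that activity. AAV2 given this way reaches mainly retinal ganglion cells (RGCs), but transduced and untransduced cells were sorted together. How many animals went into a library is not given in the sources used here, so P values measure the spread between these libraries, which may in part be technical.

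Clustered protocadherins are cell surface proteins that bind identical copies on a neighboring membrane. Each neuron chooses a subset of them from alternative promoters, a choice that involves DNA methylation, CTCF and cohesin, and the resulting combination lets neurites of the same cell recognize and avoid each other, as in starburst amacrine cells of the retina. In the alpha and gamma clusters each gene contributes a large variable exon, which encodes the extracellular and transmembrane parts and is spliced to constant exons shared by the whole cluster, whereas most beta genes are made of 1 exon and lack that constant cytoplasmic tail. The 5 C-type genes at the downstream ends of the alpha and gamma clusters (Pcdhac1, Pcdhac2, Pcdhgc3, Pcdhgc4 and Pcdhgc5) are regulated apart from the rest and are transcribed more uniformly among neurons. Gamma protocadherins also support the survival of many interneurons, a role attributed mainly to Pcdhgc4.

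Total counts ranged from 9333244 to 23782520 per library, and a single rRNA gene, CT010467.1, took 2.55% to 52.2% of them, with 50.9% and 52.2% in GFP replicates 2 and 3. Values below are CPM, counts scaled to library size after trimmed mean of M values (TMM) normalization, and fold changes come from edgeR's quasi-likelihood fit over the 18138 genes that passed the count filter. The Ezh2 level was 22.7, 23.9 and 26.4 CPM after AAV2-GFP and 65.2, 65.6 and 65.2 CPM after AAV2-Ezh2-Y726D (log2 fold change 1.46, SE 0.061, adjusted P = 3.01e-16). All 10 RGC markers were detected, but their summed level of 450.0 to 486.4 CPM over the 6 libraries was below that of 7 rod markers (5604 to 6345 CPM), so the libraries held RNA of other retinal cells. Because cells were pooled, fewer cells of a type and less RNA per cell cannot be told apart.

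The clusters lie one after another on the plus strand of chromosome 18 (GRCm38, GENCODE vM21 annotation). The alpha genes span positions 36930184 to 37187661, the beta genes 37264938 to 37524479 and the gamma genes 37661793 to 37841873. In the annotation the 14 alpha genes had 2860 exonic bases in 3 blocks in common, and the 22 gamma genes had 2116 bases in 3 blocks in common. Of the 22 beta genes, 20 shared no exonic base with another gene on their strand, and the exceptions were the neighbors Pcdhb21 and Pcdhb22, which overlap at their ends. Across the genome, of 765 annotated genes without any exonic base of their own on their strand, 1 was in the count table. The counting settings are not given in the sources used here, and that pattern is what counting would leave that gives a read in a shared exon to no gene. Counts of alpha and gamma genes made in such a way would come from their variable exons and leave out the constant exons, and levels per kilobase below assume this. Another 482 genes had bases of their own on their strand but none once the opposite strand was included. Of these, 249 were in the table, as with counting that uses strand. Their counts were low, with 20.3% reaching 10 counts against 43.1% of genes with a base unshared on both strands. The median total of those in the table was 5 against 118.

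**Figure D1:**
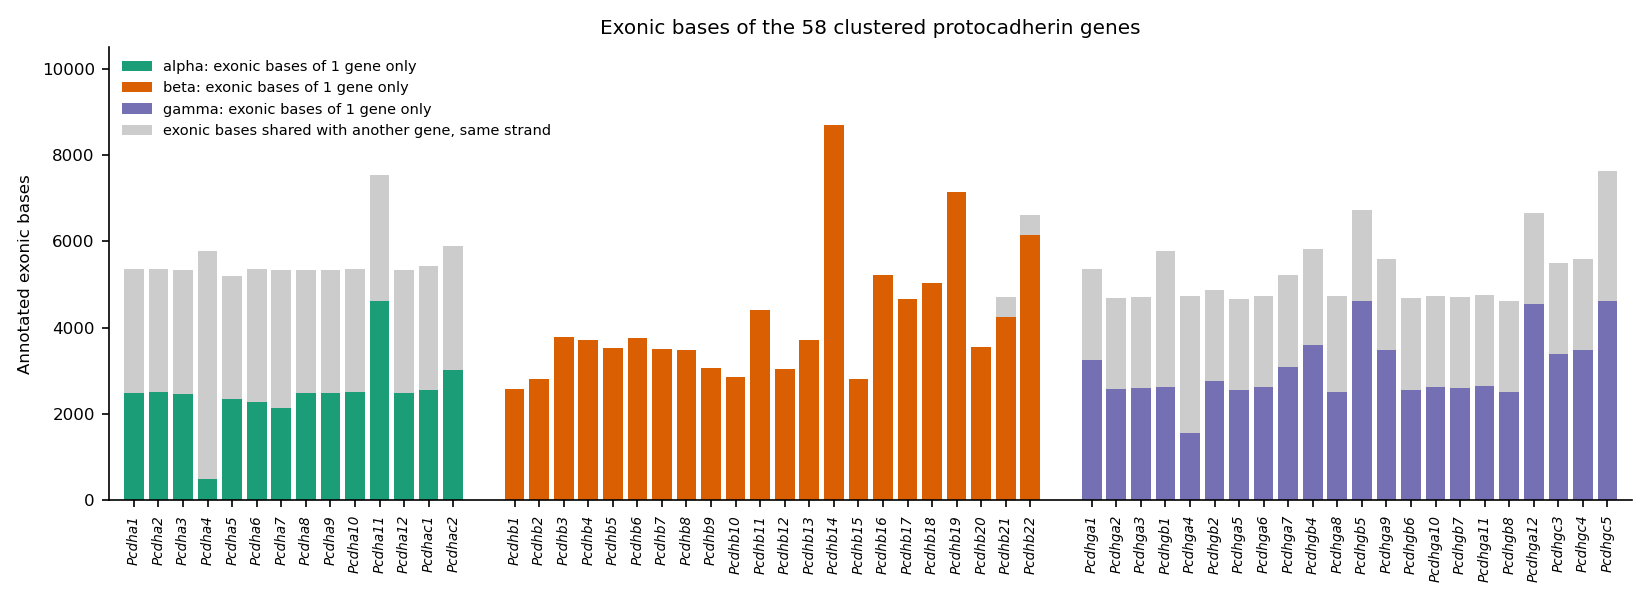
Exonic bases (y axis) of each of the 58 genes (x axis, in chromosomal order within a cluster), divided into bases that belong to 1 gene (coloured) and bases shared with another gene on the same strand (grey). Beta genes are almost entirely unshared, alpha genes share 38.9% to 91.4% of their exonic bases, and gamma genes share 31.5% to 66.8%.

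Sequence that recurs in other genes also limits what can be counted. For each gene, every 50-base window of unshared exon was looked up in the transcripts of all other genes. The share of windows found elsewhere was 0% in the 5 C-type genes, up to 4.44% in gamma A genes, up to 16.8% in gamma B genes (Pcdhgb1), up to 11.99% in beta genes (Pcdhb12) and up to 28.6% in alpha genes. That highest share belonged to Pcdha6, whose windows were found mainly in Gm36858, and the next was 25.5% in Pcdha7, whose windows were found mainly in its paralog Pcdha8. Pcdha4 kept 494 unshared bases, because an annotated readthrough transcript covers most of its variable exon, and had only 3 to 8 counts per library. It and Pcdhb1 did not pass the count filter, which left 56 genes for testing: 13 alpha, 21 beta and 22 gamma. One Ensembl ID listed as a second Pcdha11 was taken as Pcdha10, the gene that RefSeq places there.

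The members differed widely in level, measured as CPM per kilobase of unshared exon and averaged over all 6 libraries. Pcdhgc3, which restrains Wnt signaling through Axin1 and promotes dendrite branching, was highest at 16.9 (range 14.8 to 17.9). Pcdhb9 (9.41 ± 0.554, SD, n = 6), Pcdhb16 (9.12 ± 1.10), Pcdhb17 (8.94 ± 0.845) and Pcdhgc4 (8.19 ± 1.18) followed. The order of Pcdhb9, Pcdhb16 and Pcdhb17 changed between libraries, whereas Pcdhgc4 was below all 3 in each of the 6 libraries. Pcdhga3 (7.47 ± 0.674) was the highest gamma gene outside the C-type. The median level was 0.981 in the alpha, 3.83 in the beta and 4.70 in the gamma cluster. The highest and the lowest member, Pcdhb1 at 0.134, differed 126-fold. These levels depend on the exon length used. With the whole exon length every gamma level was lower, as for Pcdhga1 (2.32 in place of 3.84), while Pcdhb9 stayed at 9.41. The gamma median then lay below the beta median. With bases overlapped on the opposite strand also left out, an alternative chosen after seeing the data, Pcdhgc3 was at 31.3, Pcdhga11 moved from 6.31 to 13.3 and Pcdhb12 moved from 4.53 to 12.4, above Pcdhb9 at an unmoved 9.41.

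Alpha genes were low, and 8 of the 9 members under 1 CPM per kilobase belonged to this cluster. Pcdhac2, a C-type gene needed for the spacing of serotonergic axons, stood apart at 4.66 ± 0.234 (SD, n = 6), and Pcdha7 (1.55 ± 0.177) and Pcdha9 (1.42 ± 0.145) came next. With bases overlapped on the opposite strand also left out, 6 of 7 members under 1 CPM per kilobase were alpha genes, and Pcdha11 moved from 0.748 to 2.72, above Pcdha7. Level rose along the chromosome in the alpha cluster (Spearman rho 0.69 between order and level over 14 genes) and the beta cluster (0.70 over 22 genes), but not in the gamma cluster (−0.12 over 22 genes). These correlations are across genes measured in the same libraries and describe the clusters without a test.

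**Figure D2:**
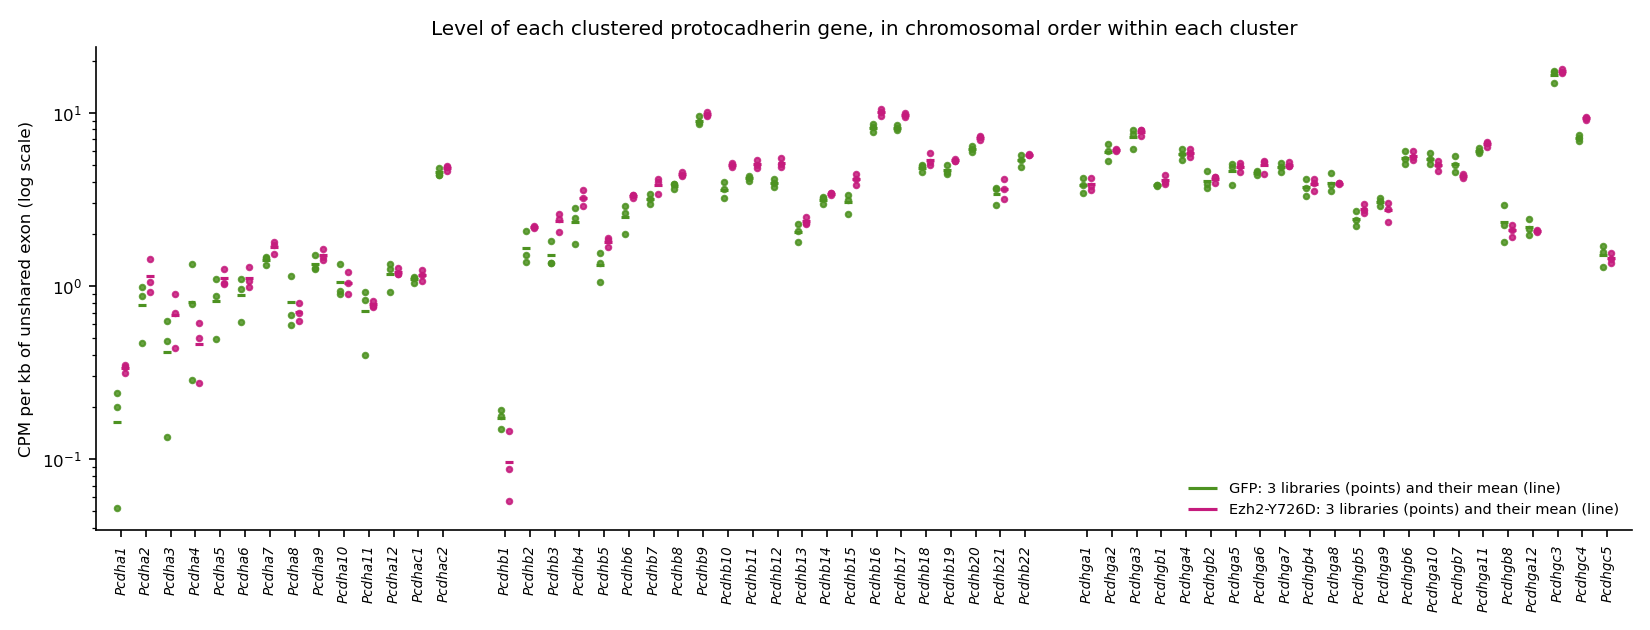
Level of each member in CPM per kilobase of unshared exon (y axis, log scale), with 1 point per library and a line at the mean of the 3 libraries of each group. Pcdhgc3 was the highest at a mean of 16.9 and Pcdhb1 the lowest at 0.134, and most beta genes had higher points in Ezh2-Y726D than in GFP.

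The central question was which members differed between Ezh2-Y726D and GFP libraries. Most tested beta genes were called higher after Ezh2-Y726D overexpression, as was the gamma gene Pcdhgc4, and no alpha gene was called. The difference between clusters was not tested. At adjusted P under 0.05, 14 of 21 tested beta genes rose, 1 of 22 gamma genes rose and 0 of 13 alpha genes changed. The beta count was 9 without GFP replicate 1, 6 with DESeq2, 3 after thinning all libraries to the depth of the shallowest and 0 with scaling to raw library totals. Members not called with all libraries were called higher in some subsets, Pcdha2 without Ezh2-Y726D replicate 1 (adjusted P = 0.0497), Pcdhga3 without GFP replicate 3 (0.0481) and Pcdhb22 without GFP replicate 2 (0.0347). Over all tested genes 13.9% were called higher and 13.6% lower, and no clustered protocadherin was called lower (0 also at an unadjusted P under 0.05 and by DESeq2, but 1 after thinning, Pcdhga10 at a log2 fold change of −0.39). The median log2 fold change was 0.24 in the beta, 0.18 in the alpha and 0.05 in the gamma cluster, beside 0.00 over all genes tested (quartiles −0.15 and 0.15). The beta median stayed between 0.21 and 0.26 under every alternative except raw totals, which moved all 3 medians (0.75 beta, 0.60 alpha and 0.55 gamma beside 0.49 over all genes). The alpha median was 0.11 with at least 10 counts required in every library and 0.12 with a replicate block, and the gamma median was −0.0072 after thinning and 0.03 without GFP replicate 1, without Ezh2-Y726D replicate 1 or when scaled to totals minus CT010467.1. Each of the 21 beta estimates was above 0, as were 50.5% of all estimates. With all libraries none of the called members reached the study's 1.5-fold limit for differentially expressed genes (DEGs), which 8.02% of tested genes passed together with the adjusted P. The called estimate of Pcdhb3 passed that limit without GFP replicate 1 (log2 fold change 0.79), without Ezh2-Y726D replicate 1 (0.63), after thinning (0.83) and with DESeq2 (0.59), and that of Pcdhb4 without GFP replicate 1 (0.64).

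**Figure D3:**
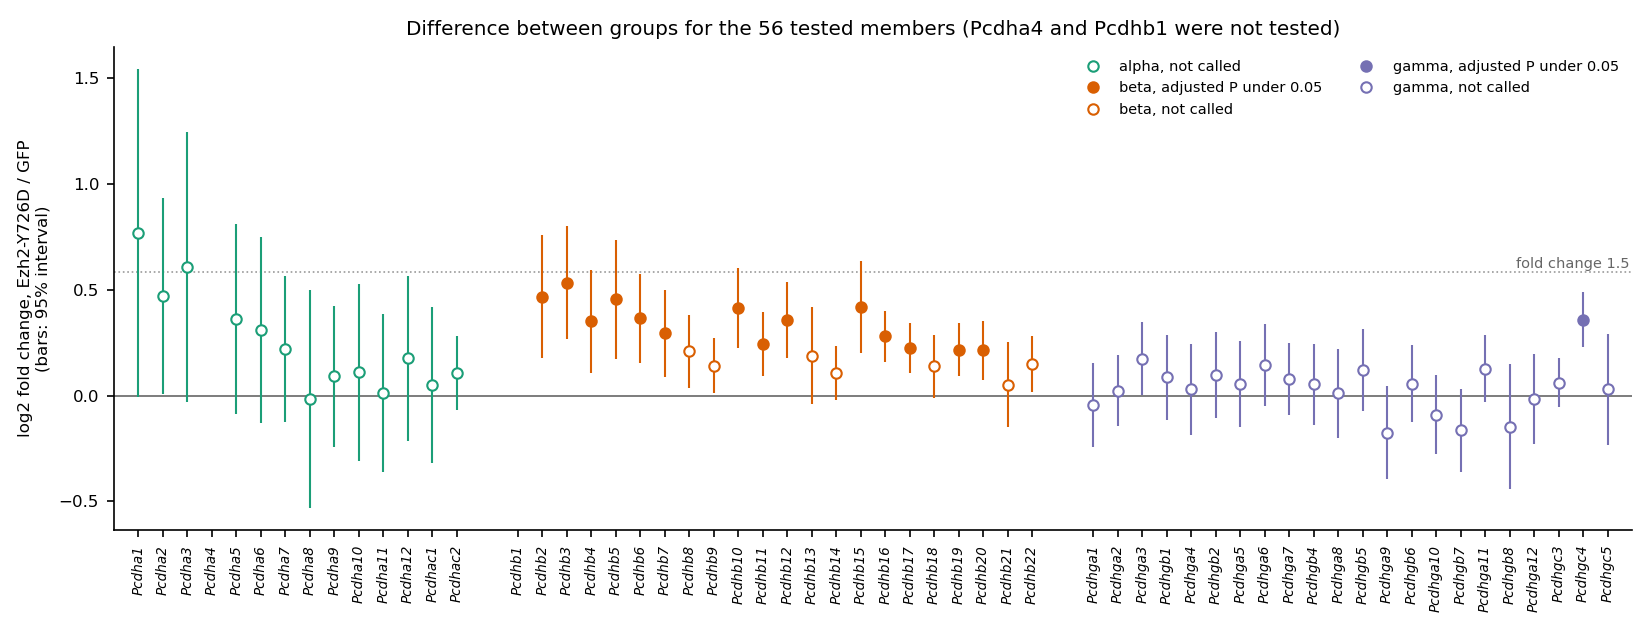
Log2 fold change of Ezh2-Y726D over GFP (y axis) with its 95% interval for the 56 tested members in chromosomal order, filled where adjusted P was under 0.05. The 14 filled beta points lie between 0.21 and 0.53, the only filled gamma point is Pcdhgc4 at 0.36, and the alpha intervals, except that of Pcdhac2, are the widest.

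The clusters were also compared as sums and as ratios within a library, which need no scaling between libraries. The beta genes summed to 380.9, 375.5 and 374.2 CPM in GFP replicates 1 to 3 and to 437.8, 455.5 and 442.6 CPM in Ezh2-Y726D replicates 1 to 3. The ratio of beta to gamma counts was 1.20, 1.20 and 1.13 in GFP and 1.31, 1.36 and 1.33 in Ezh2-Y726D, so the groups did not overlap. Gamma sums were 318.0, 313.2 and 330.1 CPM against 333.1, 336.1 and 333.4 CPM, and without the C-type genes the gamma sums of the groups overlapped (227.8 to 239.3 CPM in GFP and 233.2 to 240.7 CPM in Ezh2-Y726D). Alpha sums were 40.8 to 42.2 CPM in GFP and 44.8 to 48.9 CPM in Ezh2-Y726D, so they did not overlap either, although no single alpha gene was called. The ratio of alpha to gamma overlapped between groups, at 0.124 to 0.135 and 0.133 to 0.147. The ratio of beta to alpha overlapped as well, at 8.90 to 9.26 in GFP and 9.04 to 10.2 in Ezh2-Y726D.

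**Figure D4:**
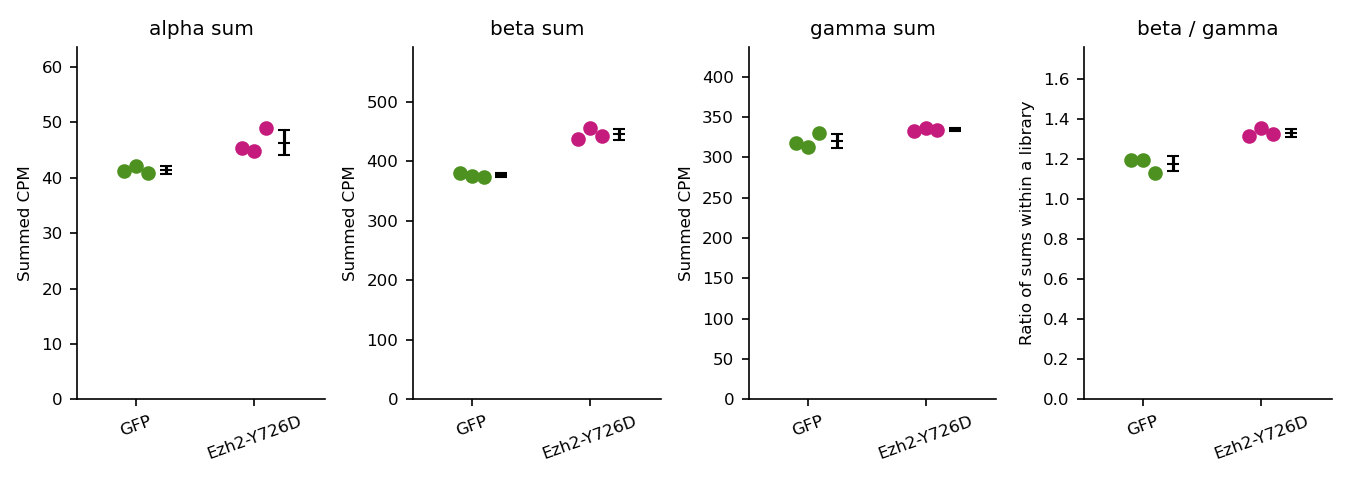
Summed CPM of the alpha, beta and gamma genes and the ratio of the beta to the gamma sum (y axes), with 1 point per library and the mean ± SD of 3 libraries in black. Beta sums averaged 377 ± 3.55 in GFP and 445 ± 9.14 in Ezh2-Y726D, and every Ezh2-Y726D ratio (1.31 to 1.36) lies above every GFP ratio (1.13 to 1.20).

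Pcdhb3, Pcdhb2 and Pcdhb5, near the upstream end, had the largest estimates of the beta cluster. Pcdhb3 was at 6.84, 5.16 and 5.14 CPM in GFP and 7.70, 9.26 and 9.86 CPM in Ezh2-Y726D, with every Ezh2-Y726D library above every GFP library. Its fitted fold change was 1.45 (95% interval 1.20 to 1.74, adjusted P = 0.00225). The fit weights libraries by their depth, so GFP replicate 1, the deepest and for Pcdhb3 the highest control, counts more than in a ratio of group means. Pcdhb2 was at 4.24, 3.87 and 5.80 CPM in GFP and 6.20, 6.18 and 6.03 CPM in Ezh2-Y726D (log2 fold change 0.47, SE 0.142, adjusted P = 0.013). The GFP values of Pcdhb2 scattered and those after Ezh2-Y726D overexpression lay close together. Pcdhb5 was at 4.77, 3.74 and 5.47 CPM against 6.46, 5.93 and 6.71 CPM (log2 fold change 0.45, SE 0.138, adjusted P = 0.0133). Pcdhb4 was at 10.5, 6.45 and 9.12 CPM against 11.9, 13.2 and 10.8 CPM (log2 fold change 0.35, SE 0.119, adjusted P = 0.0273). For Pcdhb4, Ezh2-Y726D replicate 3 exceeded GFP replicate 1 by little. The call of Pcdhb2 ended without GFP replicate 1 (adjusted P = 0.194), that of Pcdhb5 without GFP replicate 1 or 2 or Ezh2-Y726D replicate 3 (up to 0.0684) and that of Pcdhb4 without GFP replicate 2 or 3 or Ezh2-Y726D replicate 2 (up to 0.154). With DESeq2 these 3 genes had adjusted P of 0.131, 0.11 and 0.0666, and Pcdhb3 stayed called.

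Pcdhb6 and Pcdhb7 are close paralogs of Pcdhb8 and Pcdhb9, with 7.54% and 8.58% of their windows found in another gene. Pcdhb6 was at 9.82, 10.8 and 7.46 CPM in GFP and 12.03, 12.6 and 12.6 CPM in Ezh2-Y726D (log2 fold change 0.36, SE 0.102, adjusted P = 0.00723). Pcdhb7 was at 10.5, 11.1 and 11.9 CPM against 14.4, 14.0 and 11.8 CPM (log2 fold change 0.29, SE 0.1003, adjusted P = 0.0277). It was the only called member whose groups overlapped, through Ezh2-Y726D replicate 3. The call of Pcdhb7 ended without GFP replicate 1 or Ezh2-Y726D replicate 1 or 2 (adjusted P of up to 0.298), and DESeq2 called neither Pcdhb7 (adjusted P = 0.171) nor Pcdhb6 (0.0544). Pcdhb8 and Pcdhb9 did not pass the test, at log2 fold changes of 0.21 (SE 0.084, adjusted P = 0.0639) and 0.14 (SE 0.064, adjusted P = 0.107), although their Ezh2-Y726D libraries all lay above the GFP libraries.

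In the middle of the cluster Pcdhb10, Pcdhb11 and Pcdhb12 rose. Pcdhb10 was at 11.3, 10.3 and 9.12 CPM in GFP and 14.6, 13.9 and 14.2 CPM in Ezh2-Y726D, a fold change of 1.33 (95% interval 1.17 to 1.52, adjusted P = 0.000981). Pcdhb12 was at 12.6, 11.9 and 11.3 CPM against 14.8, 15.4 and 16.6 CPM, a fold change of 1.28 (1.13 to 1.45, adjusted P = 0.00253). Pcdhb11 was at 19.1, 18.6 and 17.7 CPM against 21.3, 23.4 and 22.1 CPM, a fold change of 1.18 (1.07 to 1.31, adjusted P = 0.0118). The groups were separate for all 3 genes, with gaps wider than the range of the GFP libraries, but the genes were picked by their calls in these libraries. The call of Pcdhb11 ended without Ezh2-Y726D replicate 2 (adjusted P = 0.0638) and with DESeq2 (0.0798). After thinning, Pcdhb10 (adjusted P = 0.0558), Pcdhb12 (0.0594) and Pcdhb11 (0.0879) were not called.

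Downstream, Pcdhb16, whose protein has been found at synapses in the retina, gave the smallest adjusted P in the beta cluster. It was at 43.5, 45.0 and 40.1 CPM in GFP and 49.8, 55.0 and 52.6 CPM in Ezh2-Y726D, a fold change of 1.21 (95% interval 1.12 to 1.32, adjusted P = 0.000437). Pcdhb17 was at 39.5, 38.1 and 37.0 CPM against 45.0, 44.0 and 46.3 CPM, a fold change of 1.17 (1.08 to 1.27, adjusted P = 0.00311). Both are among the most abundant beta genes, so their intervals are the narrowest of the cluster. Pcdhb15, less abundant, was at 8.73, 9.42 and 7.30 CPM against 10.6, 11.5 and 12.4 CPM, a fold change of 1.34 (1.15 to 1.55, adjusted P = 0.00301). Pcdhb19 was at 31.5, 32.2 and 35.5 CPM against 37.6, 38.4 and 37.5 CPM (log2 fold change 0.22, SE 0.061, adjusted P = 0.00717). Pcdhb20 was at 22.0, 21.0 and 22.9 CPM against 24.6, 26.1 and 25.8 CPM (log2 fold change 0.21, SE 0.068, adjusted P = 0.0174). In all 5 genes, picked by their calls in these same libraries, each Ezh2-Y726D library was above each GFP library, as in 19.7% of all genes tested. The call of Pcdhb20 ended without GFP replicate 1 or 2 or Ezh2-Y726D replicate 2 or 3 (adjusted P of up to 0.0995) and with DESeq2 (0.116), and that of Pcdhb19 without GFP replicate 1 (0.145) and with DESeq2 (0.0524). After thinning none of the 5 was called, with adjusted P of 0.165 for Pcdhb16, 0.332 for Pcdhb17, 0.378 for Pcdhb15, 0.217 for Pcdhb19 and 0.754 for Pcdhb20.

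**Figure D5:**
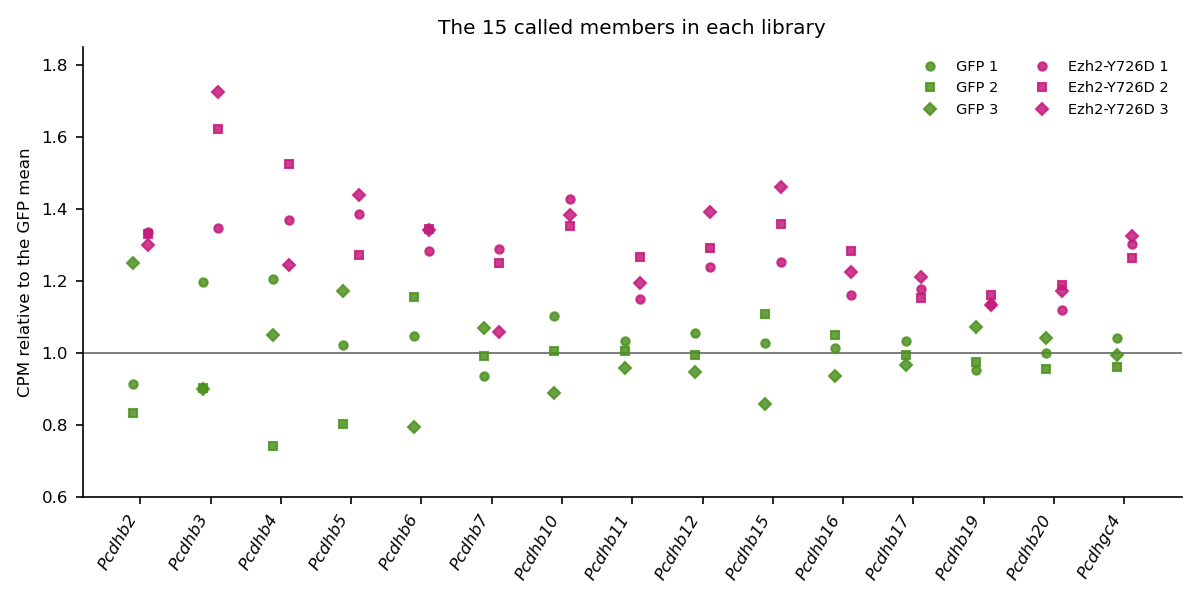
CPM of the 15 called members in each library relative to the mean of the 3 GFP libraries (y axis), with 1 symbol per replicate. In 14 of the 15 genes all Ezh2-Y726D symbols lie above all GFP symbols, and Pcdhb7 is the exception. The genes were picked by their calls in these same libraries, so the separation adds no evidence. Over all genes tested, 19.7% were separated in this direction.

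The 7 tested beta genes that were not called had log2 fold changes of 0.05 (Pcdhb21) to 0.21 (Pcdhb8), with intervals reaching at most 0.42. Every Ezh2-Y726D library was above every GFP library in 17 of the 21 tested beta genes, against 19.7% of all genes tested. The first 11 tested genes, Pcdhb2 to Pcdhb12, had a median log2 fold change of 0.36 with 9 called, and the 10 from Pcdhb13 to Pcdhb22 a median of 0.20 with 5 called. Across the 21 genes the log2 fold change fell along the chromosome (rho −0.67), but it also fell with the total count (rho −0.65), and level rose along the cluster. The test does not separate position from abundance. Pcdhb1, the untested first gene, had 13, 3 and 3 counts in GFP and 6, 3 and 11 counts in Ezh2-Y726D, and as CPM it was lower in every Ezh2-Y726D library (0.147 to 0.373) than in any GFP library (0.387 to 0.498).

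Among gamma genes the C-type gene Pcdhgc4 was the exception. It was at 25.8, 23.9 and 24.7 CPM in GFP and 32.3, 31.4 and 32.8 CPM in Ezh2-Y726D, a fold change of 1.28 (95% interval 1.17 to 1.40, adjusted P = 5.59e-05). That was the smallest adjusted P of all 56 members. Its share of the gamma sum was 7.49% to 8.12% in GFP and 9.33% to 9.85% in Ezh2-Y726D. Pcdhgc4 has no 50-base window in common with another gene, and it shares the constant exons with Pcdhgc3 and Pcdhgc5 just beside it.

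The flanking C-type genes gave a different picture. Pcdhgc3 was at 58.5, 49.9 and 58.2 CPM in GFP and 60.4, 57.8 and 57.1 CPM in Ezh2-Y726D, and the groups overlapped. Its log2 fold change was 0.06 (95% interval −0.06 to 0.18, adjusted P = 0.498), and an increase of the size seen in Pcdhgc4 lies outside that interval. The number of Pcdhgc4 counts per Pcdhgc3 count was 0.442, 0.478 and 0.425 in GFP and 0.535, 0.542 and 0.575 in Ezh2-Y726D. Pcdhgc5, which binds GABA-A receptors, was at 5.93, 7.22 and 7.80 CPM against 7.14, 6.27 and 6.58 CPM (log2 fold change 0.03, 95% interval −0.23 to 0.29).

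The 12 gamma A and 7 gamma B genes had median log2 fold changes of 0.03 and 0.06. Their estimates ran from −0.18 (Pcdhga9) to 0.17 (Pcdhga3), and none was called, with intervals reaching at most 0.35 upward and −0.44 downward. Pcdhga3, the most abundant of them, was at 16.1, 19.5 and 20.7 CPM in GFP and 19.1, 20.5 and 20.6 CPM in Ezh2-Y726D (adjusted P = 0.135). Pcdhgb7 was the only tested member with every Ezh2-Y726D library (10.9 to 11.5 CPM) below every GFP library (11.7 to 14.6 CPM), at a log2 fold change of −0.16 (SE 0.096, adjusted P = 0.231). Pcdhgb8 is annotated as a polymorphic pseudogene and was at 4.48 to 7.35 CPM over all 6 libraries.

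Most alpha genes had few counts and wide intervals. The largest estimates belonged to the first genes, Pcdha1 (log2 fold change 0.77, SE 0.378, adjusted P = 0.142), Pcdha3 (0.61, SE 0.311, adjusted P = 0.159) and Pcdha2 (0.47, SE 0.225, adjusted P = 0.13). Pcdha1 had 17, 1 and 3 counts in GFP and 23, 16 and 25 counts in Ezh2-Y726D, and its interval ran from −0.01 to 1.54. The 95% intervals of all 13 tested alpha genes held the beta median of 0.24 on the log2 scale. At an unadjusted P under 0.05, 1 alpha gene was higher, and DESeq2 called 0. Pcdhac2 was measured best, at 13.2, 13.3 and 14.6 CPM in GFP and 14.8, 14.0 and 14.7 CPM in Ezh2-Y726D (log2 fold change 0.11, 95% interval −0.07 to 0.28). Pcdhac1 was at 2.65 to 2.88 CPM in GFP and 2.71 to 3.16 CPM in Ezh2-Y726D (log2 fold change 0.05). Pcdha7 was at 2.82 to 3.16 CPM against 3.27 to 3.83 CPM (log2 fold change 0.22, SE 0.169), and Pcdha9 at 3.10 to 3.75 CPM against 3.50 to 4.03 CPM (log2 fold change 0.09, SE 0.163).

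The count of 15 higher members depended on the test and on depth. DESeq2 called 7 of them (6 beta genes and Pcdhgc4), thinning all libraries to the shallowest called 4 of them (Pcdhb3, Pcdhb4, Pcdhb6 and Pcdhgc4), and scaling to raw totals, which moves the median of all genes to 0.49, called 0. All 15 estimates stayed above 0 under each of these settings. That is no independent check, because the settings reuse the counts by which the 15 were picked. With raw totals the median of all genes was above 0 too. Leaving out both GFP replicates 2 and 3, the rRNA-rich libraries, called 12 of the 15 as well as Pcdhga3 and Pcdhb22, with the lone GFP library assumed to vary like the others.

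Markers of other cells moved with the group. Beside the 13.9% higher and 13.6% lower of all genes tested, all 7 amacrine markers were higher in Ezh2-Y726D libraries (summed level 987.0 to 1061 CPM in GFP and 1538 to 1598 CPM in Ezh2-Y726D, median log2 fold change 0.61). All 6 cone markers, 6 of 7 bipolar, 6 of 8 microglia and macrophage and all 6 T cell markers were lower, with summed levels of 387.6 to 402.5 against 249.8 to 261.5 CPM for cones, 981.5 to 997.0 against 802.2 to 826.2 CPM for bipolar cells, 650.7 to 729.0 against 389.0 to 452.2 CPM for microglia and macrophages and 93.8 to 97.8 against 54.6 to 61.5 CPM for T cells. The bipolar marker Prkca (log2 fold change 0.34, adjusted P = 8.21e-08) and the microglia marker P2ry12 (0.33, adjusted P = 0.0243) were higher. Of 4 pericyte markers 3 were lower (184 to 194.6 against 146 to 159 CPM), and of 3 tested astrocyte markers 2 were lower (288 to 327 against 240.2 to 285 CPM). Of 6 Muller glia markers 2 were lower and 1 higher, and their sums were 7716 to 8077 CPM in GFP against 6395 to 6583 CPM in Ezh2-Y726D, a gap made up mostly of Apoe (log2 fold change −0.64). Of 7 rod markers 3 were higher (5604 to 5774 against 6146 to 6345 CPM). Of 5 endothelial markers 2 were lower and of 3 tested horizontal cell markers 1 was lower. Of 10 RGC markers 2 were higher and 1 was lower, and the sums overlapped. Of 5 starburst amacrine markers, 3 were tested and none was called, and their sums, almost wholly Megf10 and Sox2, overlapped (137 to 149.9 CPM in GFP and 126 to 140.5 CPM in Ezh2-Y726D). Slc5a7, the choline transporter gene and the other tested marker, averaged 0.519 CPM in GFP and 1.03 CPM in Ezh2-Y726D (log2 fold change 0.90, SE 0.396, adjusted P = 0.0948). Chat and Slc18a3, which define these cells, had too few counts to be tested, and both were higher in every Ezh2-Y726D library (Chat 0.407 to 0.714 CPM, Slc18a3 0.392 to 0.489 CPM) than in any GFP library (up to 0.387 and 0.21 CPM). The part of these shifts in the beta and Pcdhgc4 differences was not tested. Other protein-coding genes made of 1 exon, 351 of them tested, had a median log2 fold change of 0.00, with 14.5% called higher and 15.4% lower.

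Nonclustered protocadherins, single genes elsewhere in the genome that encode related adhesion proteins, included larger differences. Of 12 tested, 7 were higher and 1 was lower, beside 13.9% and 13.6% of all genes tested, with a median log2 fold change of 0.20. Pcdh17, which organizes synapses, was at 31.4, 31.3 and 28.9 CPM in GFP and 52.2, 56.2 and 53.3 CPM in Ezh2-Y726D (log2 fold change 0.80, SE 0.060, adjusted P = 2.41e-11). Pcdh10, which takes part in axon growth, was at 46.9, 47.7 and 45.4 CPM against 78.6, 80.1 and 74.4 CPM (log2 fold change 0.73, SE 0.052, adjusted P = 1.01e-11). Pcdh19, an X-linked epilepsy gene, had a log2 fold change of 0.53 (SE 0.065, adjusted P = 2.35e-07). Estimates for Pcdh17 and Pcdh10 exceeded the 1.5-fold limit.

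Among genes known to act on promoter choice or chromatin of the clusters, 6 of 26 were higher and 2 lower, beside the same 13.9% and 13.6%, with a median log2 fold change of 0.02. Those with the largest called differences were Tet1, which oxidizes methylated DNA (0.28, SE 0.055, adjusted P = 0.000233), the cohesin regulator Pds5b (0.27, SE 0.057, adjusted P = 0.00055) and Cbx5, a heterochromatin protein (0.20, SE 0.040, adjusted P = 0.000253). Ctcf was at 76.1 to 85.9 CPM in GFP and 76.7 to 78.0 CPM in Ezh2-Y726D (log2 fold change −0.05), and Smchd1, which represses the clusters, was lower by a log2 fold change of −0.12 (adjusted P = 0.047). Of 11 PRC2 subunits, 9 were not called, Ezh2 was higher and Eed, the subunit that reads the methyl mark, was lower (−0.23, SE 0.074, adjusted P = 0.0198).

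Genes for cytoplasmic partners and for the proteases that cut protocadherins were called in both directions, 6 of 23 higher and 5 lower against 13.9% and 13.6% of all genes tested, with a median of −0.01. Ptk2b, a kinase that gamma protocadherins inhibit, was at 23.9 to 28.2 CPM in GFP and 16.4 to 17.8 CPM in Ezh2-Y726D (log2 fold change −0.64, SE 0.073, adjusted P = 7.31e-08). Wasf1, a subunit of the actin-regulating WAVE complex (0.44, SE 0.118), and Nlgn2, a neuroligin of inhibitory synapses (0.35, SE 0.052), were higher. Of 12 other genes for self-recognition and lamination, 5 were higher and 1 was lower, against the same shares. The contactins Cntn3 (0.57, SE 0.211), Cntn2 (0.52, SE 0.069) and Cntn6 (0.49, SE 0.107) were higher, Cntn5 was lower (−0.33, SE 0.073, adjusted P = 0.00074), and Cntn1 and Cntn4 were not called.

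Genes beside and between the clusters were called in both directions. Of 21 tested neighbors, 3 were higher and 2 lower, beside 13.9% and 13.6% of all genes tested, with a median log2 fold change of 0.03. Rell2 (0.41, SE 0.070, adjusted P = 3.18e-05) and Rnf14 (0.22, SE 0.039, adjusted P = 5.21e-05), downstream of the gamma cluster, were higher and Gnpda1 (−0.40, SE 0.089, adjusted P = 0.000852) was lower. Taf7 and Slc25a2, which sit between the beta and gamma clusters, had log2 fold changes of 0.05 (SE 0.084) and −0.10 (SE 0.300) and were not called.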

How the data were processed

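The authors deposited raw read counts per Ensembl gene for 6 libraries prepared with the TruSeq Stranded Total RNA Kit. The submitters' processing notes name STAR 2.7.0d and GRCm38, and the counting tool, its settings and any filter are not given in the sources used here. The clustered protocadherins and the gene lists were chosen with earlier results of these data known. Symbols were found for 32325 of 32371 IDs, and 57 of 58 members had the same symbol in GENCODE vM21 and RefSeq. Counts were filtered with filterByExpr (edgeR 4.0.16, R 4.3.3, minimum count 10, minimum total 15), scaled by TMM (factors 0.647 to 1.31) and compared between groups with the quasi-likelihood test and Benjamini-Hochberg adjustment. CPM refer to the TMM-scaled library, and levels divide CPM by exonic bases that no other gene shares on the same strand. On simulated data with 200 of 18138 genes changed by 1 log2 unit, 182 changed and 12 unchanged genes were called. The simulation gave every gene the same dispersion and a change larger than that of any called member, so it does not test those calls. Libraries of a group differed beyond sampling noise (chi-square per degree of freedom 1.49 to 3.03), so none was treated as a repeat of another, though separate preparations of the same RNA would also differ.

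Named genes are all members called, the 5 C-type genes, the 3 members of each cluster with the highest level, Ezh2 and, in each other list, up to 3 called genes with the largest fold change. Other genes, such as Pcdha1, Pcdhb8, Pcdhgb7 and Ctcf, were named after their values were seen. Alternatives were RLE, raw totals with and without CT010467.1, DESeq2 1.42.0, other filters, a replicate block, thinning to 4460732 counts per library and leaving out libraries. With 3 libraries per group an exact permutation test of a single value cannot go below P = 0.10, so none was run. No sequence is printed. Intervals cover 95%.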

Additional observations from a re-analysis of the deposited data

How the results depend on the processing

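The 15 higher members were called again with RLE size factors, with library totals without CT010467.1, with no filter, with at least 10 counts in every library and with the replicate block. Same-numbered libraries deviated together only weakly (correlations of deviations 0.136, 0.051 and 0.039). Each library correlated best with its own number, so whether the numbers pair the libraries was not settled. With the block 5222 genes and the same 15 members were called, with cluster medians of 0.12 (alpha), 0.24 (beta) and 0.04 (gamma). DESeq2 gave 7 higher members. Thinning gave 4 higher members, 1 lower (Pcdhga10, log2 fold change −0.39), 3319 called genes and a gamma median of −0.0072, and reversed the uncalled Pcdhac1 (−0.18) and Pcdhgc5 (−0.16). Raw library totals called 65 genes, all 65 past 1.5-fold, with 0 higher members and medians of 0.60 (alpha), 0.75 (beta) and 0.55 (gamma) beside 0.49 for all genes, and turned Eed (0.27) and Gnpda1 (0.092). Requiring 10 counts in every library moved the alpha median to 0.11, and DESeq2 turned the uncalled Pcdhgc5 (−0.013). With GFP replicates 2 and 3 both left out, an alternative chosen after seeing the data, the uncalled Pcdha9 was at −0.0072.

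Leaving out 1 library at a time gave 10 to 15 higher members, with 10 (9 of them beta genes) without GFP replicate 1 and 11 without Ezh2-Y726D replicate 2, and 0 lower members. Medians ranged from 0.13 to 0.26 (alpha), 0.23 to 0.26 (beta) and 0.03 to 0.08 (gamma), 3772 to 4602 genes were called, and 1207 to 1404 were DEGs. Of the 15, 8 kept the call each time (Pcdhb3, Pcdhb6, Pcdhb10, Pcdhb12, Pcdhb15, Pcdhb16, Pcdhb17 and Pcdhgc4). Pcdhb2, Pcdhb11 and Pcdhb19 lost it without 1 library each, and Pcdhb4, Pcdhb5, Pcdhb7 and Pcdhb20 without any of 3 or 4 libraries. The uncalled Pcdhgc5 ranged from −0.16 to 0.092 and Pcdhac1 from −0.0090 to 0.11, below 0 without GFP replicate 1 (Pcdhgc5) or Ezh2-Y726D replicate 1 (both). Levels per kilobase with the whole exon length kept the same top 3 members in each cluster but put the gamma median below the beta median. Excluding bases overlapped on the opposite strand, added after seeing the data, kept 2 of 3 and put Pcdhb12 first in the beta cluster. The SE of alpha estimates ran from 0.085 (Pcdhac2) to 0.378 (Pcdha1), against at most 0.142 for beta genes.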
